A study of Mus musculus with 4 samples.

Results

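The 7 genes described here are Fap, Pdpn and Cthrc1, which are widely used as labels of activated fibroblasts, and 4 members of the S100 family, S100a4, S100a6, S100a10 and S100a11. They were chosen by name, and all 7 were found among the 32285 mouse genes counted in each library. The data are single-cell RNA counts from sorted stromal and endothelial cells of mouse femurs, with 1 library for each of 4 groups. Graft_D40 and Graft_D19 came from femurs taken 40 and 19 days after the human lymphoma B-cell line DOHH2 was placed in them, Sham_D40 from femurs injected with PBS and taken on day 40, and Ctrl from femurs of ungrafted mice. All 4 groups were Rag2-/-gammac-/- mice on the C57BL/6 background, which lack T, B and NK cells, so every value below comes from an immunodeficient host. The cells were depleted of Cd45+ and Ter119+ cells and then sorted as Cd31-negative, Cd51- and Cd200-positive stroma and as Cd31- and Sca1-positive endothelium, which leaves out stroma and vessels that lack those surface markers. The number of animals behind each library and their ages are not given in the sources used here.

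Fap is a serine protease of the cell surface, and Pdpn (podoplanin) is a membrane glycoprotein that binds Clec1b on platelets and links to the cytoskeleton through ezrin and moesin. Cthrc1 is a secreted glycoprotein that has been tied to non-canonical Wnt signalling and to collagen-rich repair tissue. S100 proteins are small calcium-binding proteins. S100a4, also called fibroblast-specific protein, binds non-muscle myosin, S100a6 (calcyclin) binds Cacybp and annexins, and S100a10 and S100a11 pair with Anxa2 and Anxa1. In tumours these genes are used to mark cancer-associated fibroblasts, although several of them are also active in resting connective tissue, bone-forming cells and endothelium.

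All 4 S100 genes lie on mouse chromosome 3 (mm10, positions from GENCODE M21), S100a4 at chr3:90603771-90606045, S100a6 at chr3:90612882-90624181, S100a11 at chr3:93520488-93526287 and S100a10 at chr3:93555080-93564643, each on the plus strand. S100a4 and S100a6 are close neighbours, with 6836 bases between the end of S100a4 and the start of S100a6, and S100a5 lies in that interval. Fap is at chr2:62500943-62574075 on the minus strand, Pdpn at chr4:143267431-143299564 on the minus strand and Cthrc1 at chr15:39076932-39087121 on the plus strand. None of these 7 overlaps an annotated gene on the opposite strand, and 1 of them, S100a4, shares bases on its own strand with a read-through model, Gm42674, which is not among the 32285 counted genes. The levels of these close neighbours ran together over the 20 combinations of 5 cell classes and 4 libraries (Pearson's r of 0.93), so the 250 bases before the RefSeq start of each are shown (GRCm38.p6, plus strand, chr3:90612644-90612893 for S100a6 and chr3:90603520-90603769 for S100a4), 5′ to 3′, with any match to a searched motif in capitals.
S100a6: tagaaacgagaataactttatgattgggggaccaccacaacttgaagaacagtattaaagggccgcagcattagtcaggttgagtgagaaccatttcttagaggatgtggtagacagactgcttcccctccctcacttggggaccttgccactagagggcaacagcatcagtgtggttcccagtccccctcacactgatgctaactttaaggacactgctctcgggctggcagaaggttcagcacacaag
S100a4: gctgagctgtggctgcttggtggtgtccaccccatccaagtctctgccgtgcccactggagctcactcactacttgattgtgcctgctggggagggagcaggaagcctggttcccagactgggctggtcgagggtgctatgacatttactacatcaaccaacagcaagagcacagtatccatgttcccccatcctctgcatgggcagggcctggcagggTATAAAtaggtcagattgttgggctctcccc
The 4 motifs searched on both strands were TGANTCA (AP-1), GGGCGG (Sp1), TATAAA (the binding site of Tbp) and CACGTG (E-box). The capitals mark the single match, a TATAAA that begins 31 bases before the start of S100a4. TATAAA was found in 12.4% of the 32851 RefSeq promoter windows of the same length, TGANTCA in 6.75%, GGGCGG in 32.7% and CACGTG in 6.02%. Promoter entries were at hand for 4 of the 7 genes, S100a4, S100a6, S100a11 and Pdpn.

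After filtering, 4864 cells of Graft_D40, 4811 of Graft_D19, 4526 of Sham_D40 and 4071 of Ctrl were kept, and a cell held a median of 9793 UMIs in Graft_D40 and 8619 UMIs in Graft_D19, against 9019.5 UMIs in Sham_D40 and 3553 UMIs in Ctrl, the shallowest library. Pairs of libraries shared between 11 and 15 cell barcodes. Cells were sorted into classes by marker genes, none of which is among the 7, and levels are given as CPM, the UMIs of a gene per 1000000 UMIs summed over a class in a library. The LepR class, the Cxcl12-rich reticular stroma of the marrow, was led by Adipoq, Hp and Lpl. The Col8a1-high class, which held the LepR-gated cells with at least 10 Col8a1 UMIs per 10000, was led by Cxcl13 beside Col8a1 itself. The fibroblast class was led by Clec3b, Igfbp6 and Tnxb, the osteolineage class by Col1a1, Ifitm5 and Car3, and the endothelial class by Cldn5, Ptprb and Kdr. Col8a1-high cells numbered 763 in Graft_D40 and 378 in Graft_D19, against 198 in Sham_D40 and 120 in Ctrl, and the LepR class without them held 632 cells of Graft_D40 and 1531 of Graft_D19, against 1994 of Sham_D40 and 1754 of Ctrl. The fibroblast class was small, with 250 cells of Graft_D40 and 122 of Graft_D19, against 246 of Sham_D40 and 56 of Ctrl. The osteolineage class held 300 cells of Graft_D40, 362 of Graft_D19, 238 of Sham_D40 and 189 of Ctrl, and the endothelial class 1281 of Graft_D40, 1341 of Graft_D19, 1260 of Sham_D40 and 1465 of Ctrl. The Col8a1 threshold cuts a continuous range, and between 6.56% and 14.4% of the LepR-gated cells of a library lay between 8 and 12 UMIs per 10000. S100a4 was itself among the 10 leading genes of the fibroblast class, which was gated without it.

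With 1 library per group there is no replicate check, no p-value is given between groups, and animal, day and library cannot be told apart from the graft. Intervals are 95% intervals of the summed UMIs and cover counting error. A gene is called higher or lower where the ratio is at least 2-fold on the log2(CPM + 1) scale, its interval excludes 1 and the mean of both libraries is at least 5 CPM. This is a rule of size and not a test. Where both grafted libraries lay on the same side of both ungrafted ones, the share of all genes doing so was not counted. Differences between Sham_D40 and Ctrl, which carry no lymphoma, are given beside the others as the size of differences between ungrafted libraries.

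**Figure D1:**
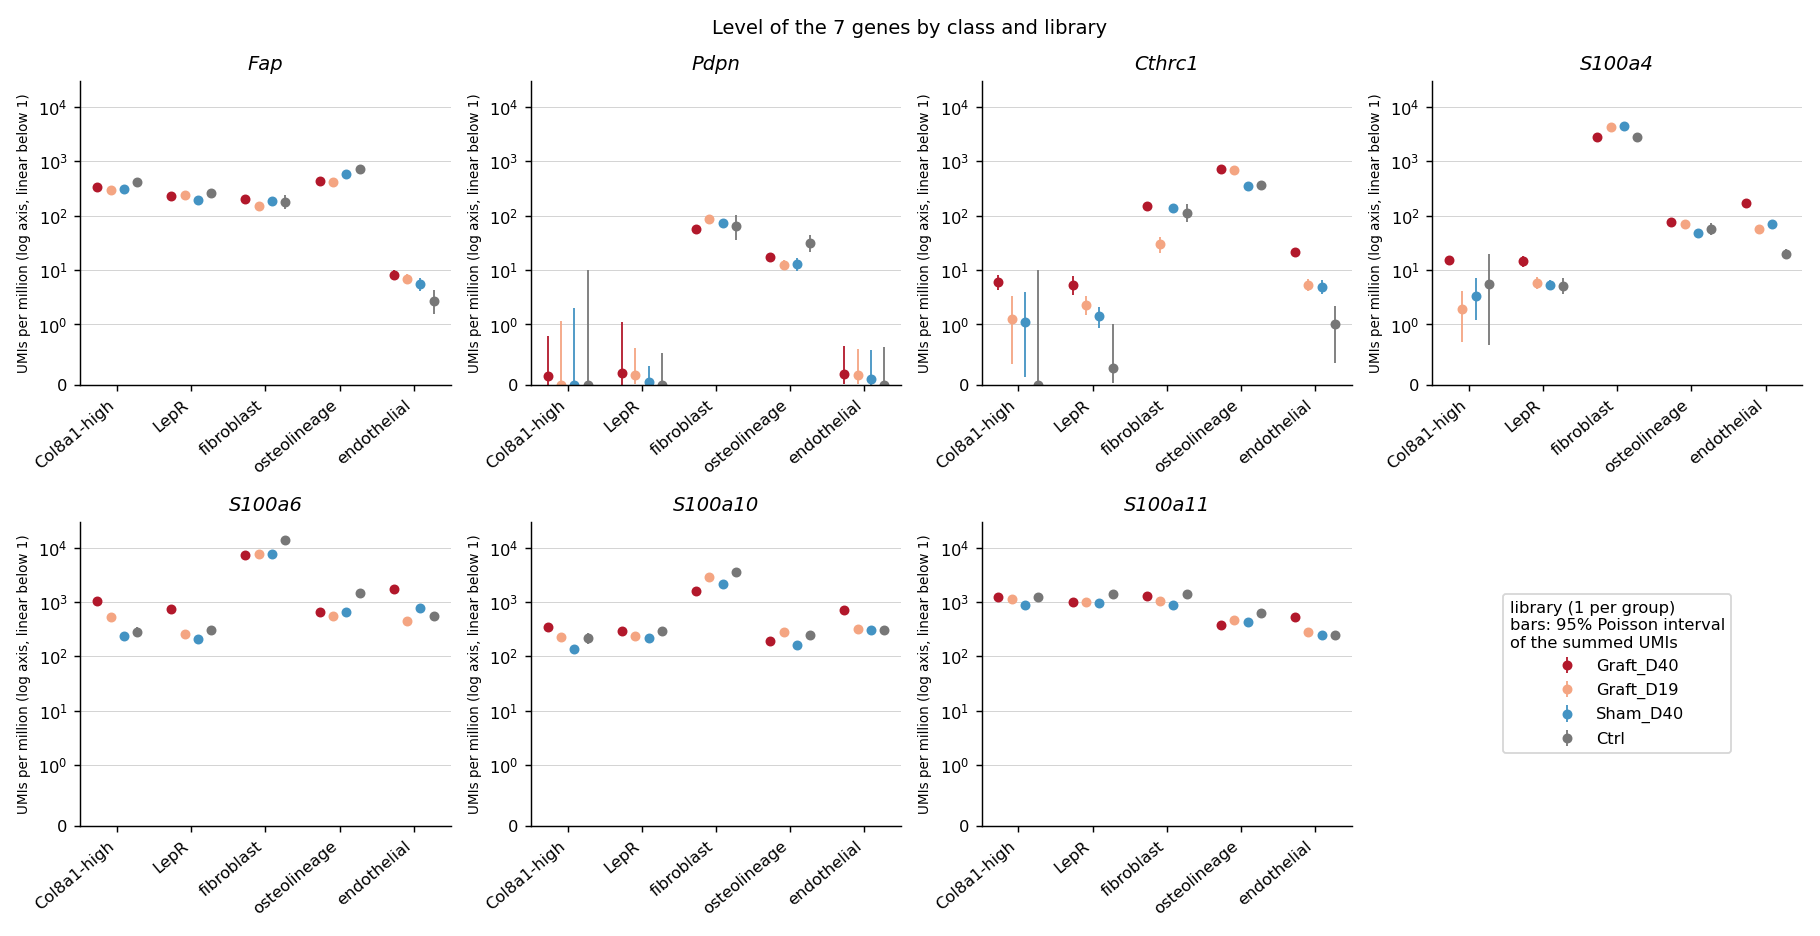
Level (CPM) of each of the 7 genes (vertical axis, logarithmic above 1 and linear below) in 5 cell classes, with 1 point per library and 95% Poisson intervals. S100a4 and S100a6 stand highest in the fibroblast class in every library, Cthrc1 and Fap in the osteolineage class, and Pdpn is at or near 0 in the LepR, Col8a1-high and endothelial classes.

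Fap was read in every mesenchymal class, and none of the ratios of a grafted to an ungrafted library in the 4 mesenchymal classes reached 2-fold. In the osteolineage class Fap stood at 442 CPM in Graft_D40 and 422 CPM in Graft_D19, against 578 CPM in Sham_D40 and 720 CPM in Ctrl. Both grafted libraries were below both ungrafted ones there, with log2 ratios of -0.39 for Graft_D40 over Sham_D40 and -0.77 for Graft_D19 over Ctrl. This class was the highest of the 5 for Fap in each of the 4 libraries. In Col8a1-high cells Fap was at 336 and 299 CPM in Graft_D40 and Graft_D19, against 307 and 422 CPM in Sham_D40 and Ctrl. LepR cells gave 229 CPM in Graft_D40 and 239 CPM in Graft_D19, against 198 CPM in Sham_D40 and 265 CPM in Ctrl. Fibroblasts gave 202 CPM in Graft_D40 and 149 CPM in Graft_D19, against 183 CPM in Sham_D40 and 182 CPM in Ctrl. Both grafted libraries lay within the range of the 2 ungrafted ones in LepR cells. In endothelial cells Fap was at 8.12 and 6.98 CPM in Graft_D40 and Graft_D19, against 5.54 and 2.69 CPM in Sham_D40 and Ctrl. The ratio of Graft_D40 to Ctrl passed the 2-fold rule there (log2 1.30), on 91 and 16 UMIs. The haematopoietic class, which should lack Fap, read 1.285 and 6.71 CPM in Graft_D40 and Graft_D19, against 5.61 CPM in Sham_D40. It held 60, 47 and 25 cells in these libraries, so few Fap UMIs underlie its values. Whether endothelial Fap lay above that level was not tested.

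Pdpn was found in fibroblasts and osteolineage cells and was nearly absent from the reticular stroma. Fibroblasts read 56.0 CPM in Graft_D40 and 87.4 CPM in Graft_D19, against 74.8 CPM in Sham_D40 and 63.5 CPM in Ctrl, and the Ctrl value rests on 15 UMIs. No library stood apart from the others there. Osteolineage cells read 17.4 and 12.6 CPM in Graft_D40 and Graft_D19, against 12.9 and 31.5 CPM in Sham_D40 and Ctrl. Ctrl was the high one of the 4, and Pdpn was 2-fold lower than Ctrl in Graft_D19 (log2 -1.26) and also in Sham_D40 (log2 -1.23), so the difference is found without a graft as well. Over LepR and Col8a1-high cells together the 4 libraries held 5 Pdpn UMIs. Between 68.7% and 100% of the osteolineage UMIs of Pdpn came from the 10 highest cells of a library.

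Cthrc1 was highest in the osteolineage class, and there it was higher in both grafted libraries than in both ungrafted ones. It stood at 733 CPM in Graft_D40 and 691 CPM in Graft_D19, against 359 CPM in Sham_D40 and 368 CPM in Ctrl. The share of all genes with both grafted libraries above both ungrafted ones was not counted. The log2 ratio was 1.03 for Graft_D40 over Sham_D40, 0.99 for Graft_D40 over Ctrl and 0.90 for Graft_D19 over Ctrl, of which the first passed the 2-fold rule. After thinning every cell to 2000 UMIs, the share of osteolineage cells with a Cthrc1 UMI was 40.3% in Graft_D40 and 32.4% in Graft_D19, against 20.7% in Sham_D40 and 20.6% in Ctrl. The osteolineage median of all genes lay at -0.25 for Graft_D40 over Sham_D40, opposite in sign to Cthrc1. The 10 highest cells gave 20.5% of the Cthrc1 UMIs in Graft_D40 and 67.2% in Ctrl, and the ratio of Graft_D40 to Sham_D40 fell just under 2-fold with a stricter gate (1.95-fold) or a stricter cell filter (1.84-fold).

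In fibroblasts Cthrc1 read 153 CPM in Graft_D40 and 29.7 CPM in Graft_D19, against 138 CPM in Sham_D40 and 114 CPM in Ctrl. Graft_D19 was the low one, and its ratio to Ctrl passed the rule (log2 -1.91), on 38 and 27 UMIs. All 27 Ctrl UMIs came from 10 cells or fewer, and the direction turns when the 10 highest cells of each library are left out. Endothelial cells read 21.3 CPM in Graft_D40 and 5.36 CPM in Graft_D19, against 4.92 CPM in Sham_D40 and 1.01 CPM in Ctrl. Much of this came from an arterial-type cluster led by Gja5 and Gja4, in which Cthrc1 was at 114 and 62.2 CPM in Graft_D40 and Graft_D19, against 51.0 and 22.8 CPM in Sham_D40 and Ctrl. That cluster made up 12.02% and 4.10% of the endothelial cells of Graft_D40 and Graft_D19, against 7.62% and 3.89% in Sham_D40 and Ctrl. LepR and Col8a1-high cells read at most 5.97 CPM in any library.

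S100a6 was higher by the 2-fold rule in Graft_D40 in both classes of reticular stroma, against Sham_D40 and against Ctrl. In Col8a1-high cells it stood at 1028 CPM in Graft_D40 and 532 CPM in Graft_D19, against 241 CPM in Sham_D40 and 284 CPM in Ctrl. Both grafted libraries were above both ungrafted ones. Graft_D40 was 4.26-fold above Sham_D40 (interval 3.87 to 4.70) and 3.62-fold above Ctrl (2.98 to 4.44), while Graft_D19 passed the rule over Sham_D40 (log2 1.14) and was short of it over Ctrl (log2 0.90). In the other LepR cells S100a6 was at 749 CPM in Graft_D40 and 256 CPM in Graft_D19, against 212 CPM in Sham_D40 and 304 CPM in Ctrl. Here Graft_D40 alone stood apart, 3.53-fold above Sham_D40 (3.37 to 3.70) and 2.46-fold above Ctrl (2.33 to 2.60), and Graft_D19 lay between the 2 ungrafted libraries.

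More cells carried S100a6, and the cells that did carried more of it. Thinned to 2000 UMIs, 62.9% of the Col8a1-high cells of Graft_D40 and 42.9% of those of Graft_D19 held an S100a6 UMI, against 29.4% in Sham_D40 and 35.8% in Ctrl. The shares in LepR cells were 50.2% in Graft_D40 and 28.0% in Graft_D19, against 27.0% in Sham_D40 and 30.3% in Ctrl. Cells with 5 or more S100a6 UMIs made up 9.72% of the thinned Col8a1-high cells of Graft_D40 and 3.55% of those of Graft_D19, and none of the 194 and 81 thinned cells of Sham_D40 and Ctrl. A Stab2-rich endothelial cluster led by Rgs4 and Sele read 44.3, 13.1, 15.2 and 19.2 CPM of S100a6 in Graft_D40, Graft_D19, Sham_D40 and Ctrl. These values were far under those of the LepR classes. Among 8 classes of Graft_D40 the lowest for S100a6 was the haematopoietic one, at 588 CPM. The part of free RNA in the S100a6 levels was not tested.

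**Figure D2:**
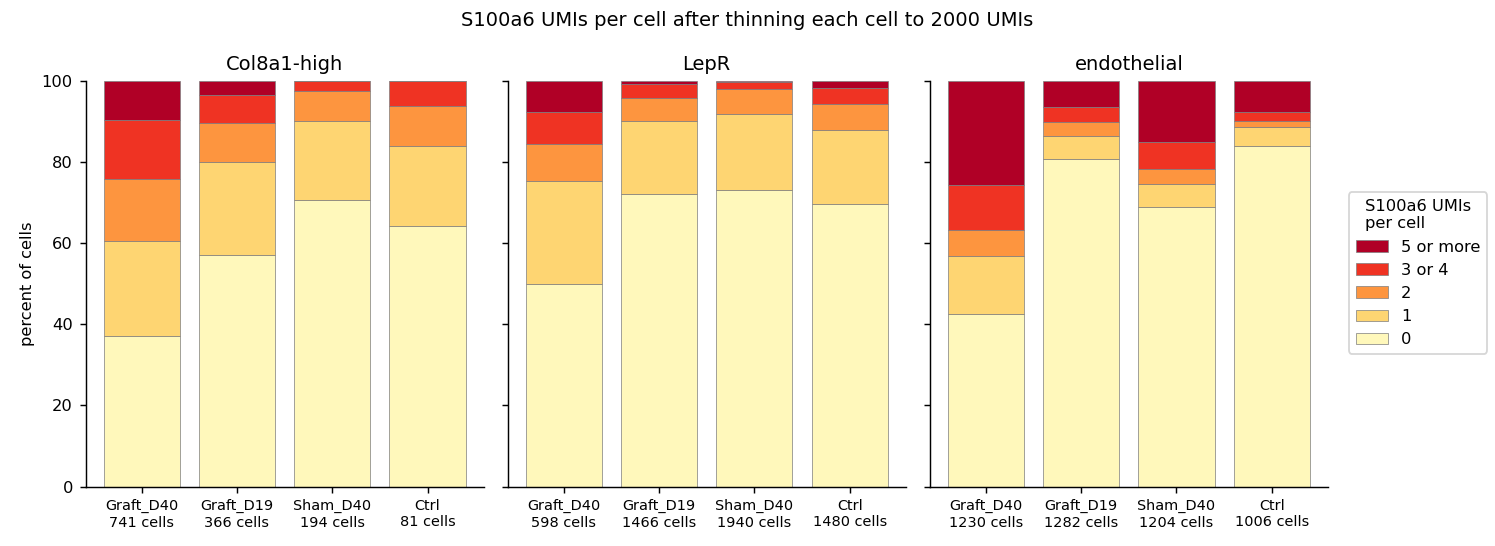
Share of cells (vertical axis, percent) by number of S100a6 UMIs after every cell was thinned to 2000 UMIs, for Col8a1-high, LepR and endothelial cells of each library. The share without a UMI is smallest in Graft_D40 in all 3 classes, at 37.1% of Col8a1-high, 49.8% of LepR and 42.4% of endothelial cells.

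S100a6 was also read within clusters of the reticular stroma, whose shares differed between the libraries. Clusters were computed without the 7 genes, and 1 of them, led by Cxcl13, Cxcl10 and Tagln, held 91.1% of the Col8a1-high cells of Graft_D40 and 67.7% of those of Graft_D19, against 3.03% of Sham_D40 and 5.00% of Ctrl. It also held 60.4% of the other LepR cells of Graft_D40 and 30.2% of those of Graft_D19, against 1.51% and 1.20% in Sham_D40 and Ctrl. LepR cells of that cluster read 879 CPM of S100a6 in Graft_D40 and 404 CPM in Graft_D19, against 462 CPM in 30 cells of Sham_D40 and 847 CPM in 21 cells of Ctrl. Ctrl was thus near Graft_D40 there, and Sham_D40 was nearer to Graft_D19, on few ungrafted cells. LepR cells of the cluster led by Bmp4 and Chl1, which held 50.2% of the LepR cells of Sham_D40 and 12.8% of those of Graft_D40, read 183 and 164 CPM in Graft_D40 and Graft_D19, against 166 and 220 CPM in Sham_D40 and Ctrl. No library stood apart within that cluster. A cluster led by Slc1a3, Kit and C3 read 877 CPM in Graft_D40 and 189 CPM in Graft_D19, against 247 and 459 CPM in Sham_D40 and Ctrl, so Graft_D40 stood apart within it. Col8a1-high cells of a cluster led by Postn and Mmp13 read 1347 CPM in 24 cells of Graft_D40. They read 469 CPM in 22 cells of Graft_D19 and 445 CPM in 25 cells of Sham_D40. LepR cells of that cluster read 242 CPM in Graft_D19, against 558 and 1057 CPM in Sham_D40 and Ctrl. In a Lars2-led cluster Col8a1-high cells read 179 and 161 CPM in Graft_D40 and Graft_D19, against 245 and 242 CPM in Sham_D40 and Ctrl. LepR cells there read 213, 131, 149 and 144 CPM in Graft_D40, Graft_D19, Sham_D40 and Ctrl. The order of the libraries thus differed between clusters. In Ctrl, 65.8% of the LepR cells fell in a cluster largely of that library, with S100a6 at 258 CPM. These within-cluster values were looked at after the class values had been seen.

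Markers of the fibroblast class, in which S100a6 is far higher, were like S100a6 highest in Graft_D40 in the reticular stroma. The order of the other libraries was not that of S100a6. The 9 fibroblast markers summed to 751 CPM in Col8a1-high cells of Graft_D40 and 554 CPM in Graft_D19, against 355 CPM in Sham_D40 and 165 CPM in Ctrl, and in LepR cells to 772 CPM in Graft_D40 and 397 CPM in Graft_D19, against 337 CPM in Sham_D40 and 297 CPM in Ctrl. All 9 had a UMI in each library in LepR cells, and in Col8a1-high cells 9 had one in Graft_D40 and 8 in Graft_D19, against 8 in Sham_D40 and 4 in Ctrl. Col3a1 made up 398 CPM of the sum in Col8a1-high cells of Graft_D40 and 285 CPM of that in LepR cells of Graft_D40. Dpt and Clec3b were at 2.73 CPM or less in every library. In the Col8a1-high cells without a UMI of any of the 9, S100a6 stood at 522 CPM in Graft_D40 and 212 CPM in Graft_D19, against 154 CPM in Sham_D40 and 253 CPM in Ctrl, a 3.38-fold ratio of Graft_D40 to Sham_D40. In LepR cells without such a UMI it was at 262 and 141 CPM in Graft_D40 and Graft_D19, against 136 and 202 CPM in Sham_D40 and Ctrl, which is 1.92-fold and short of the rule. This subset, chosen after the data had been seen, holds 119 and 104 cells of Graft_D40 and favours cells with few UMIs.

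In fibroblasts, osteolineage cells and pericytes S100a6 was above neither ungrafted library in either grafted one. Fibroblasts read 7238 CPM in Graft_D40 and 7749.9 CPM in Graft_D19, against 7795 CPM in Sham_D40 and 13721 CPM in Ctrl, and at least 98.4% of thinned fibroblasts in each library held an S100a6 UMI. Osteolineage cells read 657 and 548 CPM in Graft_D40 and Graft_D19, against 662 and 1449 CPM in Sham_D40 and Ctrl. Ctrl alone was high in both classes, and the osteolineage ratio to Ctrl passed the rule as lower in Graft_D40 (log2 -1.14), in Graft_D19 (log2 -1.40) and in Sham_D40 (log2 -1.13). The pericyte class, led by Rgs5 and Myh11, read 4501 and 3673 CPM in Graft_D40 and Graft_D19, against 6032 and 4837 CPM in Sham_D40 and Ctrl.

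S100a4, like its neighbour S100a6, was highest in fibroblasts in every library. Fibroblasts held 2753 CPM in Graft_D40 and 4288 CPM in Graft_D19, against 4558 CPM in Sham_D40 and 2751 CPM in Ctrl, and no comparison of a grafted with an ungrafted library reached 2-fold. Pericytes were the next class, with 1698 and 1089.5 CPM in Graft_D40 and Graft_D19, against 1029.9 and 326 CPM in Sham_D40 and Ctrl. Osteolineage cells read 78.3, 69.7, 47.3 and 56.8 CPM in Graft_D40, Graft_D19, Sham_D40 and Ctrl. In the reticular stroma S100a4 was low, and its Col8a1-high values in Graft_D19, Sham_D40 and Ctrl rest on 6, 6 and 2 UMIs. Col8a1-high cells read 15.3 CPM in Graft_D40 and 1.92 CPM in Graft_D19, against 3.30 and 5.51 CPM in Sham_D40 and Ctrl, and LepR cells 14.4 and 5.83 CPM in Graft_D40 and Graft_D19, against 5.35 and 5.18 CPM in Sham_D40 and Ctrl. Both ratios of Graft_D40 to Sham_D40 passed the rule (log2 1.92 and 1.28), but 53.3% and 64.8% of the Graft_D40 UMIs came from 10 cells of the class. After thinning, 1.89% of Col8a1-high and 1.84% of LepR cells of Graft_D40 held a UMI, against 1.55% of each in Sham_D40. The LepR ratio was 1.10-fold without the 10 highest cells, and in cells without a fibroblast-marker UMI it turned to 0.68-fold. The LepR call thus rests on a few cells of Graft_D40. In Col8a1-high cells 7.13 CPM was left in Graft_D40 and 0 CPM in Sham_D40 without the 10 highest cells, so that call is limited by the 6 UMIs of Sham_D40.

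S100a10 and S100a11 were read in every class. In Col8a1-high cells S100a10 stood at 345 CPM in Graft_D40 and 229.7 CPM in Graft_D19, against 139.6 CPM in Sham_D40 and 218 CPM in Ctrl. Sham_D40 was the low one, so the ratio passed the rule against Sham_D40 (2.47-fold, 2.17 to 2.82) and was 1.58-fold against Ctrl. LepR cells read 298, 242, 214 and 289 CPM in Graft_D40, Graft_D19, Sham_D40 and Ctrl, and no ratio of a grafted to an ungrafted library reached 2-fold. Fibroblasts read 1591 and 2853 CPM in Graft_D40 and Graft_D19, against 2109.97 and 3513 CPM in Sham_D40 and Ctrl, and Graft_D40 was lower than Ctrl by the rule (log2 -1.14). Osteolineage cells read 192, 278, 165 and 249.6 CPM in the order Graft_D40, Graft_D19, Sham_D40 and Ctrl. S100a11 in Col8a1-high cells was at 1254 and 1139 CPM in Graft_D40 and Graft_D19, against 893 and 1213 CPM in Sham_D40 and Ctrl. LepR cells read 992 and 1009.6 CPM in Graft_D40 and Graft_D19, against 959 and 1388 CPM in Sham_D40 and Ctrl. Fibroblasts read 1300.4 and 1047 CPM in Graft_D40 and Graft_D19, against 873 and 1405 CPM in Sham_D40 and Ctrl. Osteolineage cells read 375 and 466 CPM in Graft_D40 and Graft_D19, against 424 and 632 CPM in Sham_D40 and Ctrl, and no ratio of a grafted to an ungrafted library reached 2-fold in these 4 classes.

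**Figure D3:**
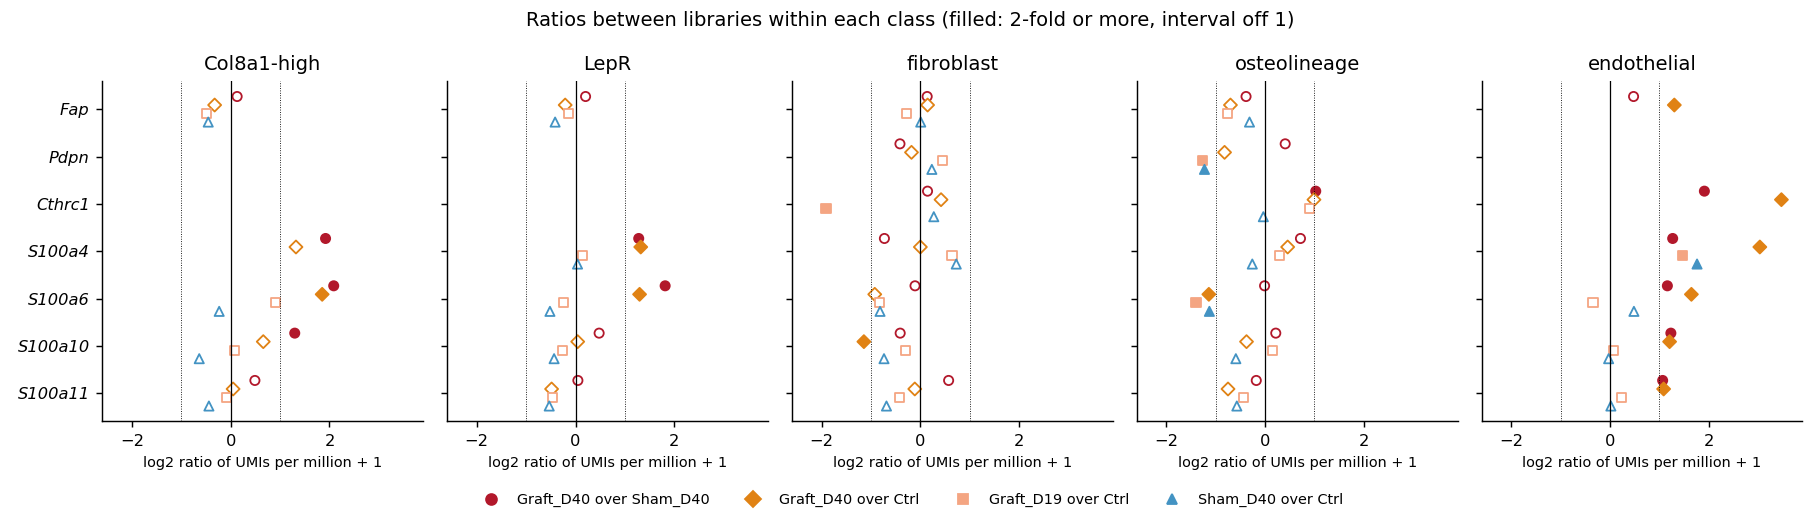
Log2 ratio of CPM + 1 (horizontal axis) for each gene with a mean of at least 5 CPM, in 5 classes and 4 comparisons between libraries; filled symbols are at least 2-fold with an interval off 1, and dotted lines mark 2-fold. S100a6 is filled to the right for Graft_D40 over Sham_D40 and over Ctrl in Col8a1-high, LepR and endothelial cells, and to the left in osteolineage cells for the 3 comparisons with Ctrl.

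In endothelial cells all 4 S100 genes were higher in Graft_D40. S100a6 stood at 1762 CPM in Graft_D40 and 442 CPM in Graft_D19, against 786 CPM in Sham_D40 and 561 CPM in Ctrl, and S100a10 at 711 and 323 CPM in Graft_D40 and Graft_D19, against 302 and 307 CPM in Sham_D40 and Ctrl. S100a11 read 522 and 287 CPM in Graft_D40 and Graft_D19, against 249 and 245 CPM in Sham_D40 and Ctrl, and S100a4 read 173 and 57.5 CPM in Graft_D40 and Graft_D19, against 71.0 and 20.2 CPM in Sham_D40 and Ctrl. Graft_D40 was apart from the other 3 libraries for each of the 4, and Graft_D19 was not. The folds of Graft_D40 over Sham_D40 were 2.24 (2.18 to 2.30), 2.36 (2.26 to 2.46), 2.10 (2.00 to 2.20) and 2.43 (2.23 to 2.66) for S100a6, S100a10, S100a11 and S100a4. For S100a4 the ratio of Sham_D40 to Ctrl was as large, at 3.52-fold. With each cell weighted equally, the 4 folds over Sham_D40 lay between 1.59 and 1.97, under the rule.

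The endothelium of the 4 libraries was not made up alike. Stab2, a scavenger receptor that marks sinusoidal endothelium in the marrow, had a UMI in 40.3% of the endothelial cells of Graft_D40 and 74.5% of those of Graft_D19, against 64.4% in Sham_D40 and 70.3% in Ctrl. Among cells without a Stab2 UMI, S100a6 read 3159 CPM in Graft_D40 and 1973 CPM in Graft_D19, against 2959 and 3481 CPM in Sham_D40 and Ctrl. S100a10 read 1032 and 638 CPM there in Graft_D40 and Graft_D19, against 800 and 789 CPM in Sham_D40 and Ctrl, S100a11 read 748 and 580 CPM in Graft_D40 and Graft_D19, against 610 and 564 CPM in Sham_D40 and Ctrl, and S100a4 read 315 and 285 CPM in Graft_D40 and Graft_D19, against 258 and 129 CPM in Sham_D40 and Ctrl. The folds of Graft_D40 over Sham_D40 among these cells were between 1.07 and 1.29, so none of the 4 passed the rule. Among cells with a Stab2 UMI, S100a6 read 237 CPM in Graft_D40 and 77.2 CPM in Graft_D19, against 64.2 and 64.7 CPM in Sham_D40 and Ctrl. S100a10 read 361 and 248 CPM in them in Graft_D40 and Graft_D19, against 136 and 225 CPM in Sham_D40 and Ctrl, and S100a11 read 276 and 217 CPM in Graft_D40 and Graft_D19, against 129 and 191 CPM in Sham_D40 and Ctrl. S100a4 read 17.7 and 3.42 CPM in these cells in Graft_D40 and Graft_D19, against 9.02 and 1.77 CPM in Sham_D40 and Ctrl. Within the Stab2-positive cells Graft_D40 was the highest library for each of the 4 genes, with folds over Sham_D40 of 3.69 for S100a6, 2.65 for S100a10, 2.15 for S100a11 and 1.97 for S100a4, of which the last did not pass the rule. The part of the share of Stab2-negative cells in the pooled difference was not tested. This split was chosen after the data had been seen, and a cell of low depth can miss a Stab2 UMI. Stab2 itself read 288 CPM in the endothelial cells of Graft_D40 and 869 CPM in those of Graft_D19, against 1179 and 1218 CPM in Sham_D40 and Ctrl. A sinusoidal cell with little Stab2 can fall among those without a UMI. Whether the cells without a Stab2 UMI were of the same kinds in each library was not tested.

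S100a6 was also read in clusters of the endothelial class. The clusters richest in S100a6 were one with Tagln and Crip1 among its leading genes and one led by Timp4 and Tcf15. The Tagln and Crip1 cluster read 5682 and 6447 CPM in Graft_D40 and Graft_D19, against 5040 and 11839 CPM in Sham_D40 and Ctrl. The Timp4 and Tcf15 cluster read 4001 and 4611 CPM in Graft_D40 and Graft_D19, against 3590.4 and 3913 CPM in Sham_D40 and Ctrl. In neither was Graft_D40 apart from the rest. The arterial-type Gja5 and Gja4 cluster, whose shares are given above, was also rich in S100a6. It read 2839 and 1487 CPM in Graft_D40 and Graft_D19, against 2097 and 3238 CPM in Sham_D40 and Ctrl. The Tagln and Crip1 cluster held 13.3% and 3.58% of the endothelial cells of Graft_D40 and Graft_D19, against 6.83% and 1.502% in Sham_D40 and Ctrl. A cluster led by Piezo2 and Ramp3 held 45.4% and 40.4% of the endothelial cells of Graft_D40 and Graft_D19, against 10.4% and 4.85% in Sham_D40 and Ctrl. Within it S100a6 read 437 and 204 CPM in Graft_D40 and Graft_D19, against 136 and 135 CPM in Sham_D40 and Ctrl, with both grafted libraries above both ungrafted ones. In the Rgs4 and Sele cluster, whose levels are given above, Graft_D40 was also the highest of the 4. That cluster held 51.0% of the endothelium of Sham_D40 and 8.51% of that of Graft_D40, and a cluster largely of Ctrl held 64.0% of the endothelium of that library. Markers of fibroblasts summed to 621 and 278 CPM in the endothelial cells of Graft_D40 and Graft_D19, against 212 and 82.7 CPM in Sham_D40 and Ctrl. Col3a1, one of them, read 19.6 and 5.68 CPM in Graft_D40 and Graft_D19, against 12.4 and 1.85 CPM in Sham_D40 and Ctrl. Another is Cd34, which endothelium also makes, and the share of each in the sum is not given here. The part of fibroblast RNA in the result was not tested.

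**Figure D4:**
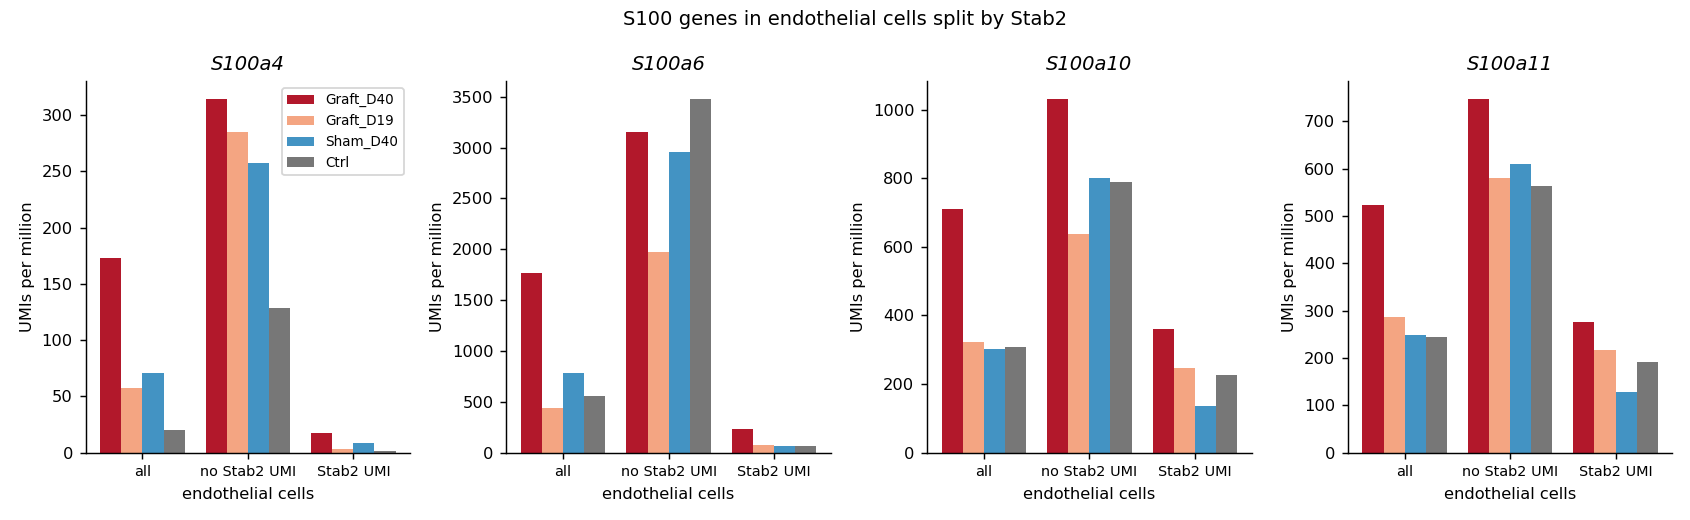
Level in CPM (vertical axis, from 0) of the 4 S100 genes in all endothelial cells, in those without a Stab2 UMI and in those with one, with 1 bar per library. Graft_D40 is above Sham_D40 by 2.10- to 2.43-fold over all endothelial cells and by 1.07- to 1.29-fold in cells without a Stab2 UMI, and by 1.97- to 3.69-fold in cells with one.

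Counted over the members, Graft_D40 over Sham_D40 gave 3 higher and 0 lower of the 5 measured in Col8a1-high cells (S100a4, S100a6 and S100a10), where 3.28% of all genes were called higher and 2.03% lower. In LepR cells it gave 2 higher of 5 (S100a4 and S100a6), beside 1.55% of all genes higher and 0.849% lower. Fibroblasts gave 0 of 7 in either direction, beside 4.89% higher and 2.93% lower. Osteolineage cells gave 1 of 7 higher (Cthrc1), beside 1.02% higher and 2.98% lower, and endothelial cells 5 of 6 higher (Cthrc1 and the 4 S100 genes), beside 2.65% higher and 2.62% lower. The median log2 ratio of the measured members was 1.30, 0.48, -0.11, 0.22 and 1.20 in these 5 classes, and that of all genes 0.07, 0.07, -0.01, -0.25 and 0.03. Graft_D40 over Ctrl gave 1 higher in Col8a1-high cells (background 6.87%), 2 higher in LepR cells (9.89%), 1 lower in fibroblasts (5.58%), 1 lower in osteolineage cells (8.95%) and 6 of 6 higher in endothelial cells (8.37%). Graft_D19 over Sham_D40 gave 1 higher in Col8a1-high cells (S100a6, 2.47%), 1 lower in fibroblasts (Cthrc1, 1.44%) and none in LepR, osteolineage and endothelial cells, where 0.617%, 2.22% and 1.99% of all genes were called in either direction. Graft_D19 over Ctrl gave none in the Col8a1-high and LepR classes (8.59% and 6.94% of all genes in either direction), 1 lower in fibroblasts (3.66%), 2 lower in osteolineage cells (5.38%) and 1 higher in endothelial cells (4.19%). Sham_D40 over Ctrl gave 2 lower in osteolineage cells (4.1%) and 1 higher in endothelial cells (3.96%), and none in Col8a1-high, LepR and fibroblast cells, where 7.24%, 6.98% and 10.4% of all genes were called in either direction. Graft_D40 and Graft_D19 are each in 2 of these comparisons and Sham_D40 and Ctrl each in 3, so the counts are not independent of each other.

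Col8a1-high and other LepR cells of 1 library were also set against each other, since both come from the same femurs. Fap was higher in Col8a1-high cells in 4 of 4 libraries, with log2 ratios between 0.32 and 0.67 and a mean of 0.54, each interval off 1 and none at 2-fold. An exact sign-flip permutation test over 4 libraries cannot go below a two-sided p of 0.13, so no p can pass 0.05 here. S100a6 was higher in 3 of 4, with log2 ratios of 0.46 in Graft_D40 and 1.05 in Graft_D19, against 0.18 in Sham_D40 and -0.10 in Ctrl. It was called in Graft_D19, beside 0.635% of all genes called higher in the same contrast. S100a10 was higher in Graft_D40 (log2 0.21) and not in the other 3, between -0.61 and -0.07, and S100a11 was higher in the 2 grafted libraries (0.34 and 0.17) and lower in the 2 ungrafted ones (-0.10 and -0.19). With cluster-based classes in place of the Col8a1 threshold, S100a6 was higher in 4 of 4 libraries with a mean log2 ratio of 1.62, S100a10 in 4 of 4 with a mean of 0.31 and S100a4 in 4 of 4 with a mean of 1.64, so the contrast depends on how the class is drawn. The cluster-based Col8a1-high class held 1189 and 763 cells of Graft_D40 and Graft_D19, against 37 and 32 of Sham_D40 and Ctrl.

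**Figure D5:**
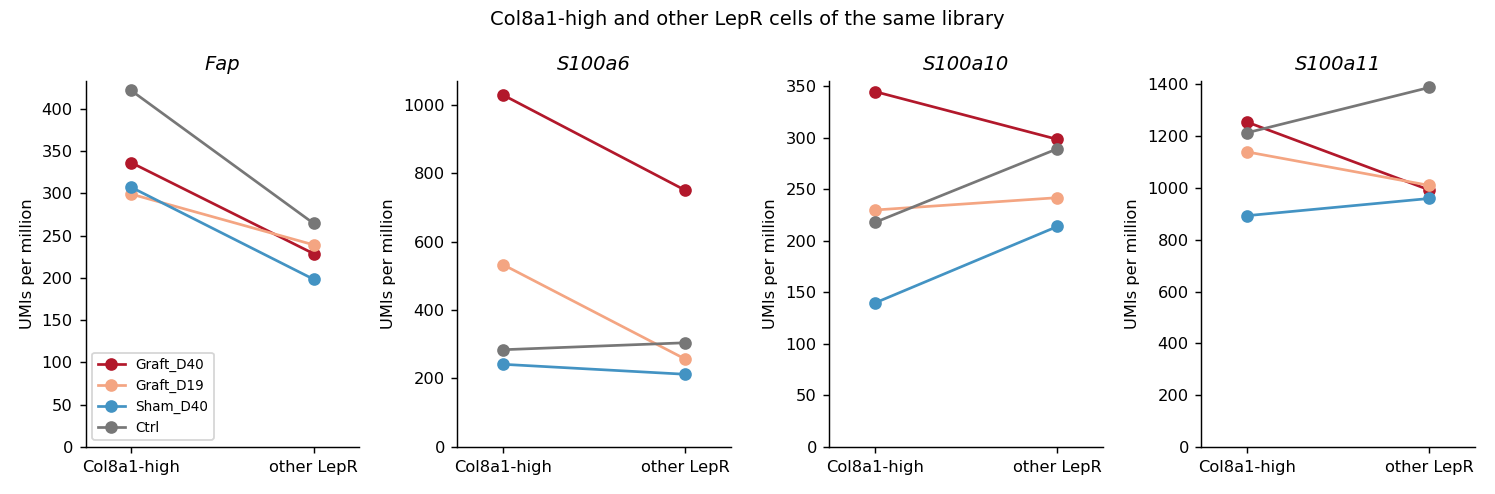
Level in CPM (vertical axis, from 0) in Col8a1-high and in other LepR cells, joined within each of the 4 libraries. The Fap line falls to the right in all 4 libraries, while the S100a6 line falls in Graft_D40, Graft_D19 and Sham_D40.

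Among 20 other genes of activated fibroblasts, 4 were higher and 1 lower of the 17 measured in Col8a1-high cells in Graft_D40 over Sham_D40. Over all genes 3.28% were called higher and 2.03% lower there, and 1.55% and 0.849% in LepR cells. The shares were 4.89% and 2.93% in fibroblasts, 1.02% and 2.98% in osteolineage cells, and 2.65% and 2.62% in endothelial cells. They also stand beside the list counts of the next paragraph. Tagln, an actin-binding protein of contractile cells, stood at 181 and 76.5 CPM in Graft_D40 and Graft_D19, against 1.10 and 5.51 CPM in Sham_D40 and Ctrl. Aebp1, a secreted collagen-binding protein, stood at 383 and 238 CPM in Graft_D40 and Graft_D19, against 69.8 and 63.4 CPM in Sham_D40 and Ctrl, and Acta2, smooth muscle actin, at 55.4 and 17.3 CPM in Graft_D40 and Graft_D19, against 5.50 and 13.8 CPM in Sham_D40 and Ctrl. LepR cells had 4 higher and 0 lower of 17, with Aebp1 at 193 and 93.2 CPM in Graft_D40 and Graft_D19, against 48.6 and 54.8 CPM in Sham_D40 and Ctrl. Fibroblasts had 4 higher and 1 lower of 19, with Acta2 at 728 and 22.6 CPM in Graft_D40 and Graft_D19, against 43.6 and 84.7 CPM in Sham_D40 and Ctrl. Of the fibroblasts of Graft_D40, 13.2% fell in a cluster led by Plac8, Cenpf and Mki67 with Acta2 among its 10 leading genes, and none of those of Graft_D19 or Sham_D40 and 1.79% of those of Ctrl did. Osteolineage cells had 3 higher and 2 lower of 17, and endothelial cells 3 higher and 0 lower of 13, led by Vim, the mesenchymal intermediate filament, at 3668 and 1113 CPM in Graft_D40 and Graft_D19, against 1215 and 390.3 CPM in Sham_D40 and Ctrl.

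Of the 11 other S100 genes, between 4 and 6 were measured in a class and none was called higher in Graft_D40 over Sham_D40. In endothelial cells S100a8 and S100a9, subunits of the neutrophil protein calprotectin, were lower, at 3.12 and 4.82 CPM in Graft_D40, against 10.1 and 11.9 CPM in Sham_D40. The haematopoietic markers, which include both, summed to 189 CPM in Graft_D40 and 227 CPM in Sham_D40. In osteolineage cells S100b was at 61.2 and 76.7 CPM in Graft_D40 and Graft_D19, against 129 and 214 CPM in Sham_D40 and Ctrl. Of the 9 S100 partners, 3 of 8 measured were higher in endothelial cells, among them Anxa1 at 202 and 85.7 CPM in Graft_D40 and Graft_D19, against 68.1 and 38.8 CPM in Sham_D40 and Ctrl, and Anxa6 at 69.2 and 41.0 CPM in Graft_D40 and Graft_D19, against 30.4 and 30.6 CPM in Sham_D40 and Ctrl. The third, Plat, the tissue plasminogen activator that S100a10 binds, was also higher in Col8a1-high cells, at 38.7 and 17.9 CPM in Graft_D40 and Graft_D19, against 2.75 and 0 CPM in Sham_D40 and Ctrl, and was 1 of 9 called there. Of the 7 podoplanin partners, Ezr was lower in fibroblasts, at 52.6 and 157 CPM in Graft_D40 and Graft_D19, against 109.8 and 110.04 CPM in Sham_D40 and Ctrl, and Cd9 was higher in endothelium, at 810.4 and 312 CPM in Graft_D40 and Graft_D19, against 372 and 345 CPM in Sham_D40 and Ctrl. None of the 5 Fap-related peptidases was called in any class in Graft_D40 over Sham_D40. Of the 4 Wnt partners of Cthrc1, Wnt5a was higher in fibroblasts, at 40.8 and 31.2 CPM in Graft_D40 and Graft_D19, against 11.96 and 12.7 CPM in Sham_D40 and Ctrl.

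Across the 20 combinations of 5 classes and 4 libraries, which share libraries and depth, the likeness of log2(CPM + 1) patterns was described by Pearson's r. S100a6 ran with S100a4 (0.93) and with S100a10 (0.93), and S100a4 with S100a10 (0.90), while S100a11 stayed at or under 0.32 with each of them. S100a11 was closer to Fap (0.62), and Pdpn to S100a4 (0.85), Cthrc1 (0.83) and S100a6 (0.80). Among 9290 other genes, those among the 3 most like each member were Clec11a and Srpx2 for Fap (0.99 and 0.98), Homer2, Pdgfrl and Dusp14 for Pdpn (0.98, 0.97 and 0.97), and Zbtb7c, Smpd3 and Cemip for Cthrc1 (0.97, 0.96 and 0.96). They were Lgals3, Serpinb8 and Ackr3 for S100a4 (0.99, 0.98 and 0.96), Tubb2b, Plp2 and Capg for S100a6 (0.97, 0.96 and 0.95), Crip1, Gpr1 and Chodl for S100a10 (0.98, 0.97 and 0.97), and Ctsz, Slc25a4 and Pmp22 for S100a11 (0.95, 0.94 and 0.94).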

How the data were processed

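Single-cell RNA was read with the 10x Genomics 3' v3.1 chemistry, per the labels' protocols. The authors deposited UMI counts per gene and barcode against mm10; the submitters' processing notes name Cell Ranger 3.1.0 and the file headers 5.0.0, and further steps are not given in the sources used here. Each library is 1 sample of its group, so no test between groups was possible. Barcodes with at least 500 genes, 1000 UMIs and at most 10% mitochondrial UMIs were kept, and Scrublet calls in scanpy 1.11.5 (0.963% to 1.93% of a library) were removed. Each cell took the class with the highest mean of its scaled markers (minimum 0.1, margin 0.05), and Col8a1-high needed 10 Col8a1 UMIs per 10000 and at least 2. UMIs were summed per class and library; intervals are exact (Poisson, and conditional binomial for ratios) and cover counting error only. Clusters (Leiden, resolution 1.0, computed without the 7 genes), thinning to 2000 UMIs, other scalings, filters and gates were the alternatives. The ratio code was tested on simulated data. The members, gene lists and markers were chosen with earlier results of these data known. List genes are named where they passed the rule in the same direction against both ungrafted libraries, up to 3 per list and class. Gene models came from GENCODE M21, which held 32158 of the 32285 gene IDs. A gene among the 3 most like Fap and a leading gene of an endothelial cluster are not reported here.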

Additional observations from a re-analysis of the deposited data

Results flagged for a closer look

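A pair of genes moved in opposite directions in different cell classes of Graft_D40 over Ctrl, each past the 2-fold rule. S100a6 had log2 ratios of 1.30 in LepR cells, 1.85 in Col8a1-high cells and 1.65 in endothelial cells, and -1.14 in osteolineage cells. S100a10 had log2 ratios of 1.21 in endothelial cells and -1.14 in fibroblasts. With 1 library per group the difference between classes was not tested. Both lower values are against Ctrl, the shallowest library: over Sham_D40 the log2 ratio was -0.01 for S100a6 in osteolineage cells and -0.41 for S100a10 in fibroblasts.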

How the results depend on the processing

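Ratios are log2 values of Graft_D40 over Sham_D40 unless another comparison is named. S100a6 passed the 2-fold rule in Col8a1-high cells under all 14 alternatives run (1.40 to 2.29) and in LepR cells under 13 of 14 (0.94 to 1.84). The exception was cells without a fibroblast-marker UMI, where S100a6 was at 0.94 in LepR cells and S100a4 at -0.45 in LepR cells, turned in sign, and 0.51 in Col8a1-high cells. S100a4 in LepR cells was at 0.91 with a pseudocount of 5 CPM, 0.72 after thinning, 0.86 with doublet calls kept, 0.19 with the stricter gate and 0.11 without the 10 highest cells, and in each of these settings 1 member was called in LepR cells. S100a4 in Col8a1-high cells was at 0.26 after thinning, 0.48 with cluster-based classes and 1.32 over Ctrl, and at 3.02, on a comparator with no UMI left, without the 10 highest cells. S100a10 in Col8a1-high cells was at 0.69 with cluster-based classes, 0.66 over Ctrl and 0.91 with Col8a1-high drawn from 5 UMIs per 10000. In both the cluster-based classes and the comparison with Ctrl 1 member was called in Col8a1-high cells.

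Cthrc1 in osteolineage cells was at 0.96 with the stricter gate, 0.88 with at least 1000 genes and at most 5% mitochondrial UMIs, and 0.99 over Ctrl; the count of members called there was 0 in the first 2 and 2 after thinning or with cluster-based classes. In endothelial cells S100a4, S100a6, S100a10 and S100a11 were at 0.82, 0.79, 0.81 and 0.79 after thinning, at 0.97, 0.76, 0.81 and 0.67 as means of per-cell values, and at 0.29, 0.094, 0.37 and 0.29 in cells without a Stab2 UMI, with 1 member called in each case. In cells with a Stab2 UMI 3 were called, with Cthrc1 at 0.996 and S100a4 at 0.90. Over Ctrl 1 member was called in fibroblasts.

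For Graft_D19 over Ctrl, Cthrc1 in fibroblasts turned from -1.91 to 2.51 and Pdpn in osteolineage cells from -1.26 to 2.30 without the 10 highest cells, by which few or no Ctrl UMIs remained, and S100a4 in endothelium turned to -0.30 over Sham_D40. The members called in Graft_D19 over Ctrl were 1 in Col8a1-high cells without the 10 highest cells, over Sham_D40, with the stricter cell filter and with per-cell means, and 2 with cluster-based classes. In fibroblasts they were 0 after thinning and with cluster-based classes and 3 without the 10 highest cells. In osteolineage cells they were 1 after thinning and 0 over Sham_D40, and in LepR cells 1 with no minimum. In endothelium they were 0 over Sham_D40 and in cells with a Stab2 UMI, 2 in cells without one and with totals free of mitochondrial, ribosomal and haemoglobin genes, and 3 with no minimum.

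Col8a1-high over LepR cells, as a mean of the 4 libraries, moved for Fap to 0.33 and for S100a4 to -1.05 without the 10 highest cells, and for Cthrc1 to -0.62 with per-cell means. Cluster-based classes gave -0.35 for Pdpn, 0.52 for Cthrc1, 1.64 for S100a4, 1.62 for S100a6, 0.31 for S100a10 and 0.33 for S100a11. At 1.5-fold the genes called over all genes were 890, 1530, 2004, 1667 and 1417 in LepR, Col8a1-high, fibroblast, osteolineage and endothelial cells, and for Graft_D19 over Ctrl 3601, 1604, 1344, 2414 and 2504, against 254, 560, 814, 392, 547 and 724, 902, 856, 1101, 636 at 2-fold. The cause of the other changes was not tested. The Col8a1 threshold of 5, the Stab2 split and the fibroblast-marker split were chosen after the data were seen. No paired analysis between groups was possible because each group has 1 library. Few UMIs limit Pdpn, and the 56 fibroblasts of Ctrl limit that class.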

Other observations

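Outside the 5 classes, cells led by cartilage genes such as Col9a1 and Matn3 were also read. Fap stood there at 231 CPM in Graft_D40 and 174 CPM in Graft_D19, against 222 CPM in Sham_D40 and 231 CPM in Ctrl. Cthrc1 stood at 127 CPM in Graft_D40 and 131 CPM in Graft_D19, against 113 CPM in Sham_D40 and 241 CPM in Ctrl. S100a6 read 638 CPM in Graft_D40 and 742 CPM in Graft_D19, against 1060.5 CPM in Sham_D40 and 889 CPM in Ctrl, so its order in cartilage-type cells was not that of the LepR classes. S100a10 read 404 CPM in Graft_D40 and 531 CPM in Graft_D19, against 478 CPM in Sham_D40 and 703 CPM in Ctrl. The Ctrl cells of this class were of low depth, with a median of 1503 UMIs.

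Graft_D40 and Sham_D40 also hold counts of 2 antibody tags whose target is not stated. One tag was ahead in all 4864 cells of Graft_D40 and the other in all 4526 cells of Sham_D40.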
